A study of Mus musculus with 24 samples.

Results

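The scavenger and Fc receptors described here are 10 genes of the 54532 in the expression table of mouse white fat. Of these, 5 are scavenger receptors (Msr1, Marco, Stab1, Scarb1 and Olr1), 4 are receptors for immunoglobulin G (Fcgr1, Fcgr3, Fcgr4 and Fcgr2b), and Fcer1g encodes the signalling chain that the activating Fc receptors share. They were chosen by gene name, and all 10 were found in the table. Polyadenylated RNA was sequenced from epididymal fat (eWAT, in the abdomen) and inguinal fat (iWAT, under the skin) of C57BL6 mice. Every mouse had received an adeno-associated virus (AAV), coding either for irisin, a hormone cut from the muscle protein Fndc5, or for GFP, the control. Each vector was combined with 18 weeks of a high-fat diet (HFD) or of normal chow. The groups of each depot were therefore irisin on HFD, irisin on chow, GFP on HFD and GFP on chow, with 3 libraries in each of the 8 groups and 24 libraries in all. The labels give neither the promoter or target tissue of the vector nor the age of the mice, and there was no group without a virus. They also do not say that the 3 libraries of a group came from 3 mice, so the p-values measure the spread between these libraries, which may be in part technical.

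Scavenger receptors bind modified lipoproteins, dying cells and microbial surfaces and carry them into the cell, and most are made by macrophages. Fc receptors bind the constant part of antibodies: the activating ones signal through the Fcer1g chain and the kinase Syk, while Fcgr2b carries an inhibitory motif that recruits the phosphatase encoded by Inpp5d. In obese fat, macrophages gather around dying adipocytes and take up lipid, which is why these receptors are often read as signs of that cell population. In bulk tissue a difference in a transcript can come from more cells that carry it or from more of it per cell, and these cannot be told apart here.

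Of the Fc receptor genes, 4 sit close together on chromosome 1 in the deposited annotation: Fcgr2b from 170958617 to 170976547, Fcgr4 from 171018920 to 171029761, Fcgr3 from 171051174 to 171064935 and Fcer1g from 171229572 to 171234365. Fcgr4 is on the plus strand and the other 3 are on the minus strand. Fcgr1 lies on chromosome 3, from 96282909 to 96293969. The scavenger receptor genes are spread over the genome, with Msr1 on chromosome 8 (39581685 to 39642673), Marco on chromosome 1 (120474538 to 120505024), Stab1 on chromosome 14 (31139013 to 31168641), Scarb1 on chromosome 5 (125277087 to 125341094) and Olr1 on chromosome 6 (129485244 to 129507165). The sources used here do not give the genome build of the table.

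The start-site windows of the clustered genes are shown because these genes are neighbours, and the diet results below turn on them. Each window runs from 250 bases before to 50 bases after the RefSeq start site (build GRCm38.p6) and is printed 5′ to 3′ on the gene's own strand. Capitals mark GAGGAA, a form of the letters bound by the myeloid factor PU.1, on either strand, so that TTCCTC is the same match on the other strand. The windows are at chr1:171018676-171018975 (plus strand) for Fcgr4, chr1:171059354-171059653 (minus strand) for the first of the 2 entries of Fcgr3, chr1:170976022-170976321 (minus strand) for Fcgr2b and chr1:171234300-171234599 (minus strand) for Fcer1g.
Fcgr4: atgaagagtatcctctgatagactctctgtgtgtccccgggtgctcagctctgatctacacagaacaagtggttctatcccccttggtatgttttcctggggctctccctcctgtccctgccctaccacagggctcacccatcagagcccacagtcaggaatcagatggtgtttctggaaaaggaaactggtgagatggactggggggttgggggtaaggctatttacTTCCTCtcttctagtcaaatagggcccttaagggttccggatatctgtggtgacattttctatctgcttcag
Fcgr3: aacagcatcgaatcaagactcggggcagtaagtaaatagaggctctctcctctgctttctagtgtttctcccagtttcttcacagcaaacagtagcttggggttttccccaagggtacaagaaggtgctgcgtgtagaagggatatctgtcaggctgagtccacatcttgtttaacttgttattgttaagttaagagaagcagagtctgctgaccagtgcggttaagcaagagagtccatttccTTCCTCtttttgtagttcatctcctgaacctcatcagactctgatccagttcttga
Fcgr2b: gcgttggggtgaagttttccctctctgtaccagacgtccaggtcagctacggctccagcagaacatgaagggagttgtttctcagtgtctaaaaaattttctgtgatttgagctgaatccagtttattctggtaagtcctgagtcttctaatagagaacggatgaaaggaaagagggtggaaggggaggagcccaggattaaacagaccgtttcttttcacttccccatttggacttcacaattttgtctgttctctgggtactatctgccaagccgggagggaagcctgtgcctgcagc
Fcer1g: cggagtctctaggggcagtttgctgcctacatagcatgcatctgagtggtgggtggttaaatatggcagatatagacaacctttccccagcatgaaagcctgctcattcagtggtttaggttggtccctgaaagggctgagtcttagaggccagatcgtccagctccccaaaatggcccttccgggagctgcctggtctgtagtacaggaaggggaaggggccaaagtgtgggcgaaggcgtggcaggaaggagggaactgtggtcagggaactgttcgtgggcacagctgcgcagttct
The match begins 22 bases before the start site in Fcgr4 and 6 bases before it in Fcgr3. The windows of Fcgr2b and Fcer1g hold no GAGGAA, although the shorter GGAA occurs in both. Of the 8 members with an entry (all but Msr1 and Scarb1), the windows of Marco, Stab1, Olr1 and Fcgr1 hold a match too, which makes 6 of 8, against 28.28% of all 32851 windows. The AP-1 letters TGANTCA are in the window of Olr1 and in 7.808% of all windows. If the table uses the same build, 2 of the printed windows lie inside the spans given above and not at their 5′ ends. They are those of Fcgr3, whose span reaches to 171064935, and Fcgr2b, whose span reaches to 170976547. A match of letters is a description of the window and does not show that a factor binds there.

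Fcgr2b and Fcgr3 also share coding sequence, which bears on how their reads can be told apart. The longest identical stretch is 129 bases, at coding bases 278 to 406 of 1020 in transcript Fcgr2b-201 and at coding bases 263 to 391 of 801 in Fcgr3-201, within the part that encodes the extracellular domains.
Shared by Fcgr2b and Fcgr3: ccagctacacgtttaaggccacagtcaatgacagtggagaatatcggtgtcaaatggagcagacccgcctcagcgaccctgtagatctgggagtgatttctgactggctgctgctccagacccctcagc
Of all 50-base words in the transcripts of Fcgr3 (GENCODE M21), 9.58% also occur in Fcgr2b, and 2.92% of those of Fcgr2b occur in Fcgr3. The sources used here do not give how the authors' counting treated reads that fit both genes, so a part of each value may belong to the other gene. In GFP eWAT Fcgr3 averaged 138 FPKM on HFD and 30.2 on chow, and Fcgr2b 12.4 and 11.7 FPKM. The part could therefore be larger for Fcgr2b than for Fcgr3, and larger on HFD than on chow. Its size was not tested. No 50-base word of Msr1, Marco, Fcgr1, Fcgr4 or Fcer1g is shared with another gene. Stab1 overlaps Nt5dc2 on the other strand, and 0.579% of its words occur there. Nt5dc2 reached at most 12.8 FPKM, and without knowing whether strand was used its reads cannot be separated from those of Stab1 in the overlap.

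Reads per library came to between 14145644 and 19726771, and levels are given in FPKM, which scales the fragments of a gene by its length and by the depth of the library. Adipoq, the adipocyte hormone, was between 615 and 2284 FPKM in every library, and the 3 mesothelial markers summed to 13.9 to 286 FPKM in eWAT and to at most 0.708 FPKM in iWAT, so the depots matched their labels. Of the libraries, 4 were rich in transcripts of another tissue: iWAT GFP HFD replicate 1 (6 B cell markers summing to 423 FPKM, against 2.81 and 13.6 in its group), eWAT GFP chow replicate 1 (B cell markers 119 FPKM, against 8.61 and 21.2), iWAT irisin chow replicate 3 (4 skeletal muscle markers 2944 FPKM, against 57.8 and 181) and eWAT GFP HFD replicate 3 (3 epididymal epithelium markers 388 FPKM, against 0 in both others). A further 2 libraries were low in macrophage transcripts: the 8 macrophage markers summed to 1044 FPKM in eWAT irisin HFD replicate 2, against 2954 and 3193 in its group, and to 209 FPKM in iWAT GFP chow replicate 3, against 1333 and 1283. Values without a library are given beside the results that it moves most.

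Per unit of gene length, Fcer1g and Fcgr3 were the most abundant of the 10 transcripts, with medians over the 24 libraries of 41.7 and 32.5 FPKM. Stab1 (22.9 FPKM), Scarb1 (14.1 FPKM) and Fcgr2b (11.7 FPKM) came next, followed by Fcgr1 (3.03 FPKM), Fcgr4 (2.05 FPKM), Msr1 (2.01 FPKM) and Marco (1.51 FPKM). Olr1 had a median of 0.136 FPKM and between 0 and 72 reads a library. Between the lowest and the highest group mean the levels of Marco spanned 47.3-fold, those of Msr1 21.9-fold and those of Fcgr4 18.9-fold, while Scarb1 spanned 1.53-fold. The group with the highest mean was GFP HFD eWAT for 7 of the 10, the exceptions being Fcgr2b (irisin chow iWAT), Scarb1 (irisin HFD iWAT) and Marco (GFP HFD iWAT). When the 8 groups are put in order of their means, neighbours mostly overlapped: in 7 of 7 neighbouring pairs for 6 of the genes, and in 6 of 7 for Msr1, Stab1, Fcgr3 and Fcgr4.

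**Figure D1:**
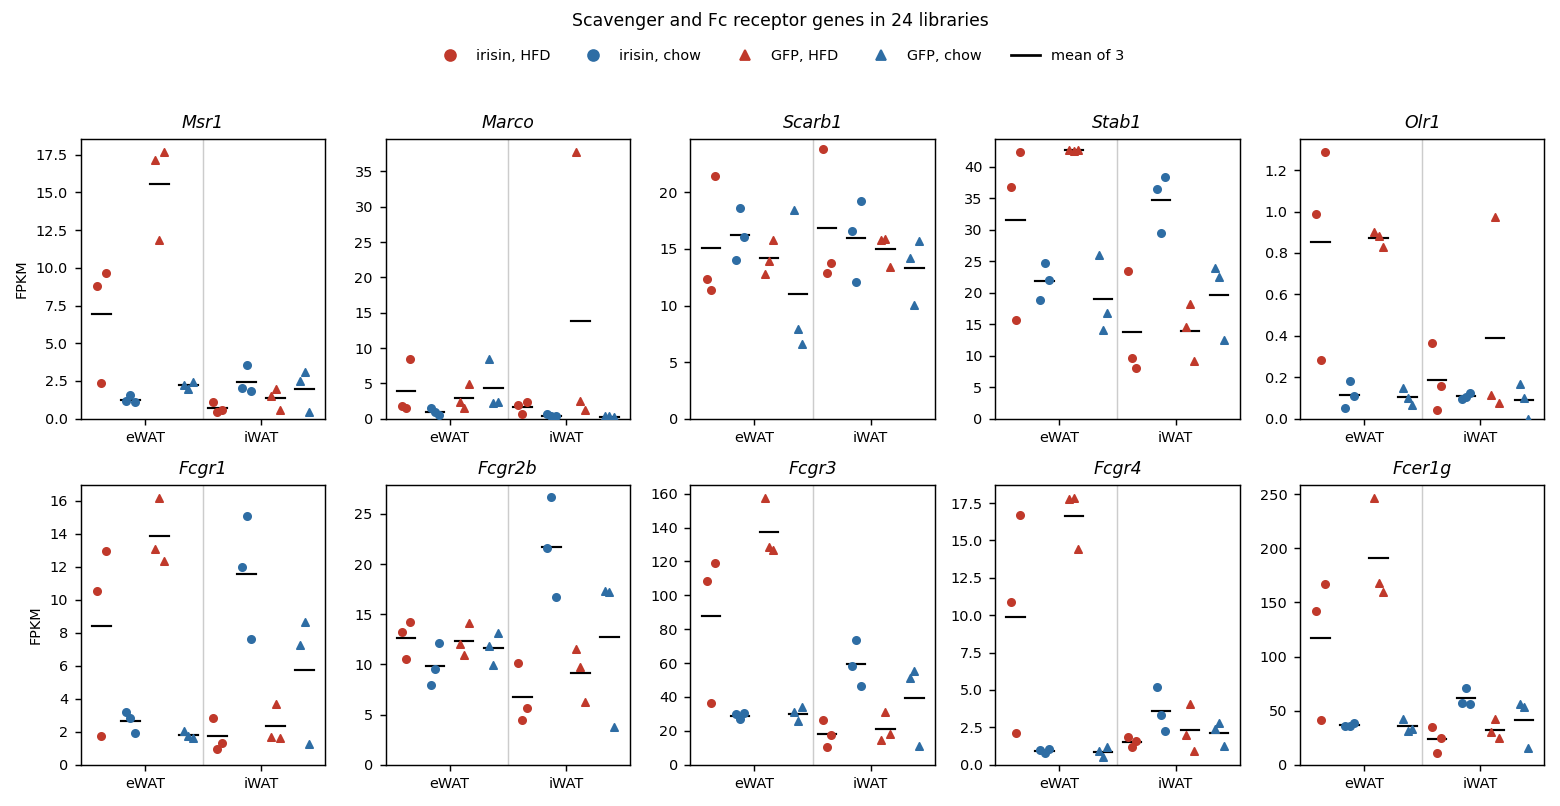
Level in FPKM (vertical axis, linear from 0, own scale in each panel) of the 10 receptor genes in the 24 libraries, eWAT on the left and iWAT on the right of each panel. Points are single libraries, circles for irisin and triangles for GFP, red for HFD and blue for chow, and black lines are means of 3; in eWAT the red points of Fcgr4 lie between 2.12 and 17.8 FPKM, above all blue points, while those of Fcgr2b overlap the blue ones.

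The first comparison asks how the receptors differed between HFD and chow within a depot and a vector. In eWAT of GFP mice 7 of the 10 genes were higher on HFD: the activating Fc receptor genes Fcgr1, Fcgr3 and Fcgr4, the signalling chain Fcer1g, and the scavenger receptor genes Msr1, Stab1 and Olr1. Of all genes tested in that comparison 14.7% were called higher and 26.5% in either direction. All 7 were apart from chow without overlap, as were 22.9% of all genes in the higher direction. Fcgr2b, the inhibitory receptor, and Scarb1 and Marco did not pass. In eWAT of irisin mice 5 of 10 were higher on HFD, Fcgr4, Msr1, Fcer1g, Fcgr3 and Olr1, against 9.47% of all genes called higher and 17.4% called in either direction. Those 5 were also without overlap, against 18.9% of all genes. A gene is called where its adjusted p, from limma across all genes with Benjamini-Hochberg adjustment, is under 0.05, and fold changes are on the log2(FPKM + 0.5) scale, where low genes show less than their true change. With 3 libraries against 3, an exact permutation test of 1 gene cannot go below 0.1, so the moderated test across genes was used.

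Fcgr4, an activating receptor of mice, had the widest difference with diet. It was at 10.9, 2.12 and 16.7 FPKM in irisin HFD eWAT, against 0.956, 0.817 and 1.03 FPKM in irisin chow eWAT. In GFP mice it was at 17.7, 17.8 and 14.4 FPKM on HFD, against 0.945, 0.517 and 1.19 FPKM on chow. Every HFD library lay above every chow library in both vectors, and the lowest HFD value was that of irisin replicate 2. The log2 fold change was 2.48 ± 0.53 (SE, adjusted p = 0.0123) in irisin mice, and 3.66 ± 0.53 (SE, adjusted p = 0.00144) or 12.6-fold in GFP mice. Fcgr3, the low-affinity activating receptor and the most abundant of the 4, was at 108, 36.2 and 119 FPKM in irisin HFD eWAT, against 29.7, 26.96 and 30.3 FPKM in irisin chow eWAT. In GFP mice its values were 158, 128 and 127 FPKM on HFD, against 30.97, 25.9 and 33.9 FPKM on chow. The chow libraries of both vectors fell within a narrow band and all HFD libraries lay above it. Its log2 fold change was 1.41 ± 0.35 (SE, adjusted p = 0.0224) in irisin mice and 2.17 ± 0.35 (SE, adjusted p = 0.0022) in GFP mice.

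Fcgr1, the receptor that binds single antibodies with high affinity, had 13.1, 16.2 and 12.3 FPKM in GFP HFD eWAT, against 2.06, 1.75 and 1.62 FPKM in GFP chow eWAT, a log2 fold change of 2.63 ± 0.53 (SE, adjusted p = 0.00516). In irisin mice it was at 10.5, 1.72 and 12.9 FPKM on HFD, against 3.22, 2.84 and 1.94 FPKM on chow. Here the groups overlapped, because HFD replicate 2 was below all 3 chow libraries, and the difference of 1.15 ± 0.53 (SE, adjusted p = 0.154) was not called. Without that library the log2 fold change was 1.97 (adjusted p = 0.000114). Fcer1g, whose chain the 3 activating receptors need at the cell surface, was at 142, 41.3 and 168 FPKM in irisin HFD eWAT, against 35.98, 36.1 and 38.5 FPKM in irisin chow eWAT. In GFP mice it had 247, 168 and 159.6 FPKM on HFD, against 42.6, 31.4 and 33.3 FPKM on chow. The groups did not overlap in either vector, and the log2 fold change was 1.42 ± 0.42 (SE, adjusted p = 0.0405) in irisin mice and 2.39 ± 0.42 (SE, adjusted p = 0.00283) in GFP mice.

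Fcgr2b, the only inhibitory receptor of the 4, stayed within the spread of its replicates. It was at 13.2, 10.5 and 14.2 FPKM in irisin HFD eWAT, against 7.98, 9.56 and 12.1 FPKM in irisin chow eWAT. In GFP mice its values were 12.03, 10.9 and 14.1 FPKM on HFD, against 11.9, 9.96 and 13.1 FPKM on chow. HFD and chow libraries overlapped in both vectors, with log2 fold changes of 0.35 ± 0.17 (SE, adjusted p = 0.189) in irisin mice and 0.08 ± 0.17 (SE, adjusted p = 0.776) in GFP mice.

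Among the scavenger receptors, Msr1, a class A receptor for modified lipoproteins, was at 8.78, 2.34 and 9.64 FPKM in irisin HFD eWAT, against 1.14, 1.55 and 1.09 FPKM in irisin chow eWAT. In GFP mice it had 17.1, 11.9 and 17.7 FPKM on HFD, against 2.24, 2.001 and 2.42 FPKM on chow. All HFD libraries lay above the chow libraries of the same vector, with log2 fold changes of 1.88 ± 0.39 (SE, adjusted p = 0.0112) in irisin mice and 2.54 ± 0.39 (SE, adjusted p = 0.00184) in GFP mice. Olr1, a lectin-like receptor for oxidised LDL known best from endothelium, was low throughout, at 0.986, 0.282 and 1.29 FPKM in irisin HFD eWAT against 0.0504, 0.181 and 0.108 FPKM in irisin chow eWAT. Its GFP values were 0.903, 0.884 and 0.83 FPKM on HFD, against 0.148, 0.101 and 0.067 FPKM on chow. The groups did not overlap in either vector, and the log2 fold changes were 1.06 ± 0.27 (SE, adjusted p = 0.0244) in irisin and 1.18 ± 0.27 (SE, adjusted p = 0.00992) in GFP mice. These values rest on at most 72 reads a library.

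Stab1, a large receptor of tissue macrophages and sinusoidal endothelium, had 42.6, 42.5 and 42.6 FPKM in GFP HFD eWAT, against 25.99, 14.02 and 16.8 FPKM in GFP chow eWAT. The 3 HFD libraries were nearly equal and above all chow libraries, a log2 fold change of 1.197 ± 0.33 (SE, adjusted p = 0.0207). That call was lost in 5 of the 6 fits that left out 1 of the 6 libraries, at log2 fold changes of 1.01 to 1.198 and adjusted p of 0.0535 to 0.0721. In irisin mice Stab1 was at 36.8, 15.6 and 42.4 FPKM on HFD, against 18.8, 24.7 and 21.96 FPKM on chow, and the difference of 0.41 ± 0.33 (SE, adjusted p = 0.408) was not called. HFD replicate 2 was again below the chow libraries, and without it the difference was 0.85 and was called (adjusted p = 0.017). Scarb1, the receptor for high-density lipoprotein, which adipocytes also make, was at 12.3, 11.4 and 21.4 FPKM in irisin HFD eWAT against 13.99, 18.6 and 16.1 FPKM in irisin chow eWAT. In GFP mice it was at 12.8, 13.96 and 15.8 FPKM on HFD against 18.5, 7.92 and 6.63 FPKM on chow. The diets overlapped, with log2 differences of -0.15 ± 0.33 (SE, adjusted p = 0.788) in irisin and 0.49 ± 0.33 (SE, adjusted p = 0.315) in GFP mice. The value of 18.5 FPKM belongs to GFP chow replicate 1, 1 of the 2 libraries rich in B cell transcripts, and without it the GFP difference was 0.92 (adjusted p = 0.0243). Marco, a class A receptor with a collagen-like stalk, had 1.75, 1.49 and 8.38 FPKM in irisin HFD eWAT against 1.496, 0.925 and 0.469 FPKM in irisin chow eWAT. Its GFP values were 2.37, 1.52 and 4.88 FPKM on HFD against 8.46, 2.21 and 2.39 FPKM on chow. Single libraries stood well above the others in 3 of the 4 groups, and neither difference was called, at 1.28 (adjusted p = 0.182) in irisin and -0.39 (adjusted p = 0.696) in GFP mice. The 8.46 FPKM is from GFP chow replicate 1 and the 4.88 FPKM from GFP HFD replicate 3, both rich in other tissues. The 8.38 FPKM is from irisin HFD replicate 3, where the B cell markers summed to 23.5 FPKM, against 5.91 and 5.89 in its group. The part of those cells was not tested.

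In the GFP comparison of eWAT the number of called members was 6 to 8 when any 1 of its own 6 libraries was left out. The irisin comparison was less settled: 5 members were called with all libraries, 1 without irisin HFD replicate 1, 2 without HFD replicate 3 or without any 1 of the irisin chow libraries, and 7 without HFD replicate 2. Fitted with its own 6 libraries alone it gave 0 called members, and 7 after leaving out the 2 libraries low in macrophage transcripts. Those libraries were picked by genes that move with these receptors, so the higher count follows in part from the choice.

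**Figure D2:**
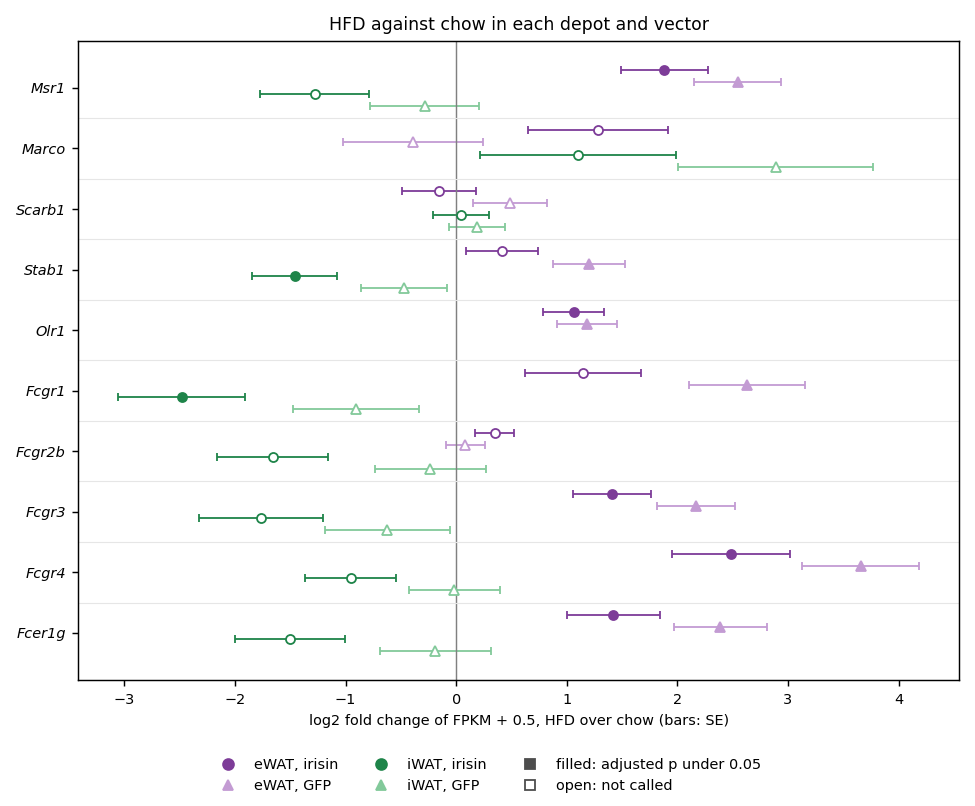
Log2 fold change of FPKM + 0.5, HFD over chow (horizontal axis, bars show the SE), for the 10 receptor genes (rows) in eWAT and iWAT of irisin mice (circles) and GFP mice (triangles). Filled symbols have an adjusted p under 0.05; in GFP eWAT 7 filled symbols lie to the right of 0, in irisin eWAT 5, and in irisin iWAT 2, Stab1 and Fcgr1, lie to the left. Olr1 was below the filter in iWAT.

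The macrophage transcripts themselves moved with diet in eWAT. The 8 macrophage markers summed to 2954, 1044 and 3193 FPKM in irisin HFD eWAT, against 893, 776 and 865 FPKM in irisin chow eWAT, and to 4533, 3314 and 3477 FPKM in GFP HFD eWAT, against 1293, 910.3 and 1230.4 FPKM in GFP chow eWAT. The 6 markers of lipid-associated macrophages summed to 350 to 2057 FPKM in irisin HFD eWAT against 78.9 to 106 FPKM in irisin chow eWAT, and to 1636 to 2812 FPKM in GFP HFD eWAT against 90.9 to 124 FPKM in GFP chow eWAT. No marker of either list was at 0 throughout a group. Each receptor was therefore also divided by a macrophage reference, the geometric mean FPKM of Adgre1, Csf1r and Cd68 in the same library. That reference was 142, 45.7 and 203 FPKM in irisin HFD eWAT against 28.4, 27.2 and 28.2 in irisin chow eWAT, and 209, 196 and 167 FPKM in GFP HFD eWAT against 32.2, 25.2 and 31.4 in GFP chow eWAT. The part of cell numbers in the receptor values was not tested, and the quotients are descriptions, since Cd68 and Adgre1 can themselves change within a cell. The 3 reference genes also moved unequally. In GFP eWAT, Adgre1 averaged 157 FPKM on HFD and 20.7 on chow, Csf1r 100 and 45.6, and Cd68 444 and 27.9.

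On this scale the receptors of eWAT did not move as one group. The reference itself was higher on HFD, so any gene that rose less than it is lower per reference by construction. How many of all genes are apart between diets on this scale was not computed. Fcgr4 was higher per reference, at 0.0764, 0.0463 and 0.0824 in irisin HFD eWAT against 0.0336, 0.03 and 0.0363 in irisin chow eWAT, and 0.0847, 0.0908 and 0.0864 in GFP HFD eWAT against 0.0294, 0.0205 and 0.0379 in GFP chow eWAT. The diets did not overlap in either vector. With Adgre1 alone as the reference they overlapped in irisin mice, at 0.0945, 0.0656 and 0.115 in irisin HFD eWAT against 0.0574, 0.0517 and 0.0693 in irisin chow eWAT, and stayed apart in GFP mice. Msr1 overlapped between diets in both vectors with either reference, and had 0.0818, 0.0605 and 0.106 in GFP HFD eWAT against 0.0695, 0.0792 and 0.0771 in GFP chow eWAT, and 0.0617, 0.0513 and 0.0476 in irisin HFD eWAT against 0.0403, 0.0569 and 0.0385 in irisin chow eWAT. Fcgr1 overlapped in both vectors, but with Adgre1 alone it was lower on HFD without overlap in irisin mice, at 0.0915, 0.0533 and 0.0892 in irisin HFD eWAT against 0.194, 0.18 and 0.131 in irisin chow eWAT. Fcgr3 was lower per reference on HFD without overlap in either vector, at 0.76, 0.794 and 0.587 in irisin HFD eWAT against 1.04, 0.99 and 1.07 in irisin chow eWAT, and 0.753, 0.654 and 0.76 in GFP HFD eWAT against 0.963, 1.02 and 1.08 in GFP chow eWAT. Fcgr2b lagged most among the Fc receptors, with 0.0929, 0.23 and 0.0701 in irisin HFD eWAT against 0.281, 0.351 and 0.429 in irisin chow eWAT, and 0.0575, 0.0555 and 0.0847 in GFP HFD eWAT against 0.369, 0.395 and 0.418 in GFP chow eWAT. Stab1 had 0.258, 0.342 and 0.209 in irisin HFD eWAT against 0.661, 0.907 and 0.778 in irisin chow eWAT, and 0.204, 0.217 and 0.255 in GFP HFD eWAT against 0.808, 0.555 and 0.534 in GFP chow eWAT. For both genes all 6 HFD libraries lay below all 6 chow libraries, although the level of Stab1 itself was higher on HFD in GFP mice. Scarb1 lay between 0.0611 and 0.249 per reference in the 6 HFD libraries and between 0.211 and 0.684 in the 6 chow libraries, with the diets apart within each vector. Olr1 overlapped between diets in both vectors. Fcer1g was lower on HFD without overlap in irisin mice and overlapped in GFP mice, and Marco was lower without overlap in GFP mice and overlapped in irisin mice. With Adgre1 alone Marco, Scarb1, Stab1, Olr1, Fcgr2b, Fcgr3 and Fcer1g were lower or overlapped in the same vectors. Set against Csf1r alone, Fcgr3 and Fcer1g went the other way: in both vectors their means lay above that of Csf1r on HFD and below it on chow. In GFP eWAT the means were 138 (Fcgr3), 191 (Fcer1g) and 100 FPKM (Csf1r) on HFD, against 30.2, 35.7 and 45.6 FPKM on chow. The direction for these 2 genes thus depends on the reference gene.

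**Figure D3:**
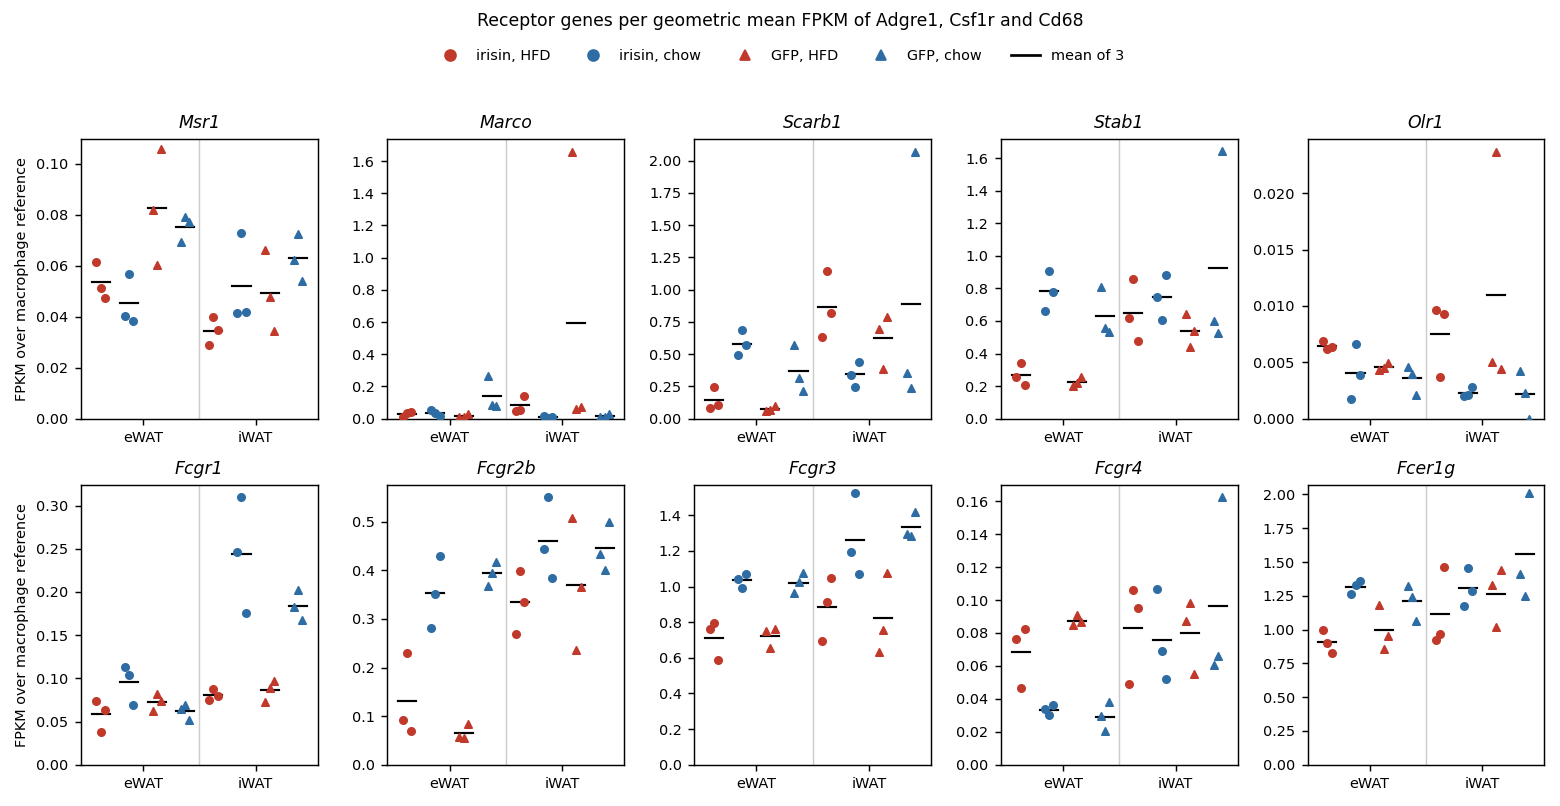
FPKM of each receptor gene divided by the geometric mean FPKM of Adgre1, Csf1r and Cd68 in the same library (vertical axis, linear from 0, own scale in each panel), by depot, with circles for irisin, triangles for GFP, red for HFD, blue for chow and black lines for means of 3. In eWAT the red points lie above the blue ones for Fcgr4 and below them for Fcgr2b and Stab1; the high iWAT points of Scarb1, Stab1, Fcgr4 and Fcer1g belong to GFP chow replicate 3, whose reference was 7.61 FPKM.

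The balance of activating to inhibitory receptors was taken as the summed FPKM of Fcgr1, Fcgr3 and Fcgr4 over that of Fcgr2b. In eWAT it was 9.799, 3.82 and 10.5 in irisin HFD libraries, against 4.24, 3.203 and 2.75 in irisin chow libraries. In GFP mice it was 15.7, 14.9 and 10.9 on HFD, against 2.86, 2.83 and 2.79 on chow. Of the 6 HFD libraries 5 lay above all chow libraries, and irisin HFD replicate 2 lay within the chow range. HFD over chow within vector, the ratio was 3.25-fold higher, a difference of 1.70 on the log2 scale (exact stratified permutation test, two-sided, p = 0.01, where the smallest possible is 0.005, and 0.0416 after adjustment over the 5 ratio tests). The difference was 1.13 in irisin mice and 2.27 in GFP mice. Leaving out any 1 library gave 1.57 to 1.98, and leaving Fcgr3 out of the ratio gave 2.48 (exact p = 0.015). Any Fcgr3 reads counted as Fcgr2b would remain in the Fcgr2b value of that ratio.

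In iWAT the same ratio was 3.05, 2.76 and 3.63 in irisin HFD libraries, against 3.48, 3.45 and 3.38 in irisin chow libraries, and 1.56, 3.98 and 3.35 in GFP HFD libraries, against 3.53, 3.87 and 3.496 in GFP chow libraries. The low value of 1.56 belongs to GFP HFD replicate 1, the library rich in B cell transcripts. B cells carry Fcgr2b, and the part of those cells in this value was not tested. The HFD over chow difference was -0.27 on the log2 scale (exact p = 0.2, adjusted 0.333). The 6 chow libraries of iWAT stayed between 3.38 and 3.87, although the summed FPKM of the 4 receptors ran from 17.1 to 119 in them. Irisin over GFP, the ratio differed by -0.33 in eWAT (exact p = 0.39, adjusted 0.488) and by 0.05 in iWAT (exact p = 0.95, adjusted 0.95). The ratio was higher in eWAT than in iWAT by 0.78 over all vectors and diets (exact p = 0.0166, adjusted 0.0416). By stratum it was 1.22 in irisin HFD, 2.31 in GFP HFD, -0.04 in irisin chow and -0.36 in GFP chow libraries. It was 0.30 (exact p = 0.478) without Fcgr3 and 0.68 (exact p = 0.0501) without the 4 libraries rich in other tissues.

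Taken as shares of the summed FPKM of the 4 immunoglobulin G receptors, Fcgr2b made up 12.9% ± 6.79 in irisin HFD eWAT against 23.2% ± 3.85 in irisin chow eWAT, and 6.905% ± 1.33 in GFP HFD eWAT against 26.1% ± 0.244 in GFP chow eWAT (SD, n = 3). Fcgr4 made up 7.35% ± 3.04 in irisin HFD eWAT against 2.19% ± 0.139 in irisin chow eWAT, and 9.25% ± 0.911 in GFP HFD eWAT against 1.94% ± 0.529 in GFP chow eWAT (SD, n = 3). Fcgr3 held the largest share in every library, from 48.7% to 78.6%. The share of Fcgr1 was highest in iWAT on chow, with 11.8% ± 1.21 in irisin and 9.01% ± 1.46 in GFP mice, and lay between 3.25% and 9.33% in eWAT.

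**Figure D4:**
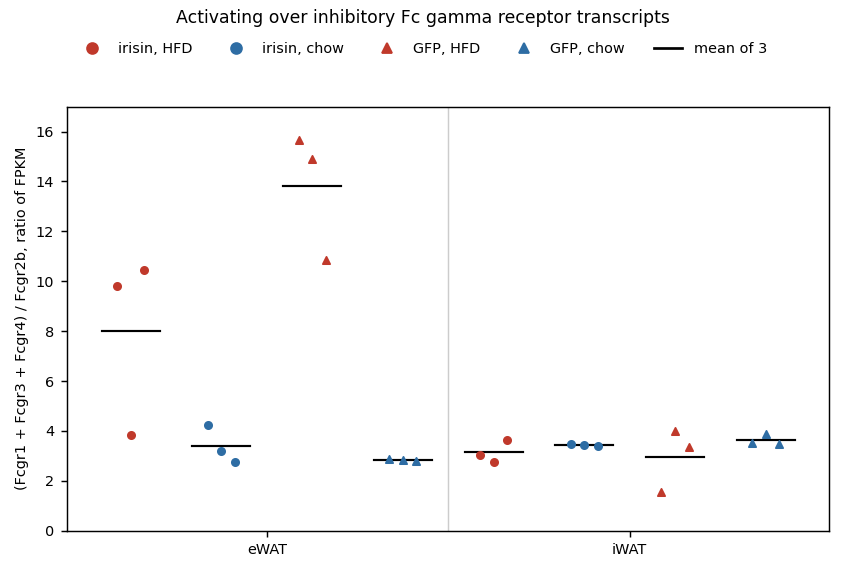
Summed FPKM of Fcgr1, Fcgr3 and Fcgr4 divided by the FPKM of Fcgr2b (vertical axis, linear from 0) in each library, eWAT left and iWAT right, with circles for irisin, triangles for GFP, red for HFD, blue for chow and black lines for means of 3. In eWAT 5 of 6 HFD libraries lie between 9.80 and 15.7 and the chow libraries between 2.75 and 4.24; in iWAT all libraries lie between 1.56 and 3.98.

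In iWAT the receptors did not follow the eWAT pattern. Olr1 was below the filter there, so 9 members were tested. In irisin mice 2 of 9, Fcgr1 and Stab1, were lower on HFD, against 4.19% of all genes called lower and 9.01% called in either direction. In GFP mice 0 of 9 were called, against 2.37% of all genes (limma, with 3085 genes at an unadjusted p under 0.05). Fcgr1 was at 2.82, 0.984 and 1.33 FPKM in irisin HFD iWAT, against 11.98, 15.05 and 7.64 FPKM in irisin chow iWAT, a log2 fold change of -2.48 ± 0.57 (SE, adjusted p = 0.0249). Stab1 was at 23.4, 9.65 and 8.03 FPKM in irisin HFD iWAT, against 36.4, 29.4 and 38.3 FPKM in irisin chow iWAT, a log2 fold change of -1.46 ± 0.38 (SE, adjusted p = 0.0404). In both genes every HFD library lay below every chow library.

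In irisin iWAT, groups without overlap and lower on HFD were seen in 7 of the 9 genes, against 19.2% of all genes tested. Besides the 2 that were called these were Msr1, Fcgr2b, Fcgr3, Fcgr4 and Fcer1g. Fcgr3 had 26.4, 10.3 and 17.6 FPKM in irisin HFD iWAT, against 58.1, 73.9 and 46.6 FPKM in irisin chow iWAT (log2 fold change -1.76, adjusted p = 0.0747). Fcgr2b had 10.2, 4.505 and 5.65 FPKM in irisin HFD iWAT, against 21.6, 26.7 and 16.7 FPKM in irisin chow iWAT (log2 fold change -1.66, adjusted p = 0.0637). Fcer1g had 35.02, 10.9 and 24.7 FPKM in irisin HFD iWAT, against 57.02, 70.8 and 56.03 FPKM in irisin chow iWAT (log2 fold change -1.503, adjusted p = 0.0841). In each of these genes replicate 1 of the HFD group came closest to the chow libraries. Msr1 (1.09, 0.449 and 0.589 FPKM in irisin HFD iWAT, against 2.01, 3.54 and 1.82 in irisin chow iWAT) differed by -1.28 (adjusted p = 0.124). Fcgr4 (1.85, 1.19 and 1.597 FPKM in irisin HFD iWAT, against 5.19, 3.35 and 2.26 in irisin chow iWAT) differed by -0.95 (adjusted p = 0.162). The macrophage markers summed to 637, 234 and 413 FPKM in irisin HFD iWAT, against 1156, 1637 and 1151 FPKM in irisin chow iWAT, and were lower too; their part in these values was not tested. Divided by the macrophage reference, Fcgr1 was lower on HFD without overlap in both vectors. It was at 0.0746, 0.0873 and 0.0793 in irisin HFD iWAT against 0.247, 0.31 and 0.175 in irisin chow iWAT. In GFP mice it was at 0.0724, 0.0887 and 0.0969 in HFD iWAT against 0.182, 0.202 and 0.167 in chow iWAT. Fcgr3 was also lower without overlap in both vectors, at 0.697 to 1.05 in irisin HFD iWAT against 1.07 to 1.52 in irisin chow iWAT. Msr1 was lower without overlap in irisin mice. Marco and Olr1 were higher per reference without overlap in both vectors, and Scarb1 in irisin mice. The share of all genes apart on this scale was not computed.

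The GFP groups of iWAT were more spread. Fcgr3 had 14.5, 31.2 and 18.3 FPKM in GFP HFD iWAT, against 51.4, 55.1 and 10.8 FPKM in GFP chow iWAT, and Fcer1g had 30.3, 42.2 and 24.4 FPKM against 56.3, 53.6 and 15.3 FPKM in the same groups. Chow replicate 3, the library low in macrophage transcripts, was below the HFD libraries in both genes while the other chow libraries were above them. Fcgr1 was at 1.65, 3.66 and 1.65 FPKM in GFP HFD iWAT, against 7.25, 8.66 and 1.27 FPKM in GFP chow iWAT, and Fcgr2b at 11.6, 9.77 and 6.23 FPKM against 17.3, 17.2 and 3.8003 FPKM. Stab1 had 14.6, 18.1 and 9.17 FPKM in GFP HFD iWAT, against 23.8, 22.5 and 12.5 FPKM in GFP chow iWAT. Msr1 had 1.51, 1.97 and 0.588 FPKM in GFP HFD iWAT, against 2.47, 3.105 and 0.412 FPKM in GFP chow iWAT. Fcgr4 had 1.99, 4.05 and 0.933 FPKM in GFP HFD iWAT, against 2.403, 2.83 and 1.24 FPKM in GFP chow iWAT. All of these overlapped between diets. Without chow replicate 3 the log2 difference was -1.65 for Fcgr1 (adjusted p = 0.0585), -1.37 for Fcgr3 (0.0905) and between -0.91 and -0.296 for Msr1, Stab1, Fcgr2b, Fcgr4 and Fcer1g, and none was called. Olr1 was listed at 0.364, 0.042 and 0.156 FPKM in irisin HFD iWAT against 0.0961, 0.102 and 0.124 in irisin chow iWAT, and at 0.114, 0.974 and 0.0745 FPKM in GFP HFD iWAT against 0.169, 0.0994 and 0 in GFP chow iWAT, with GFP HFD replicate 2 standing above the rest.

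Marco gave a positive difference in iWAT of GFP mice. It was at 37.7, 2.51 and 1.24 FPKM in GFP HFD iWAT, against 0.314, 0.338 and 0.226 FPKM in GFP chow iWAT, and the groups did not overlap, with 12% of all genes higher without overlap. The difference of 2.89 ± 0.88 (SE, adjusted p = 0.11) was not called. The value of 37.7 FPKM comes from replicate 1, in which the 6 B cell markers summed to 423 FPKM and the 6 T and NK cell markers to 59.9 FPKM, against 2.81 and 13.6 FPKM and 3.67 and 2.57 FPKM in the other replicates. Without the 4 libraries rich in other tissues the difference was 1.53 (adjusted p = 0.103). In irisin mice Marco was at 1.91, 0.623 and 2.403 FPKM on HFD against 0.678, 0.317 and 0.328 FPKM on chow, with overlapping groups (log2 fold change 1.101, adjusted p = 0.447). Scarb1 overlapped between the diets in both vectors, at 23.8, 12.9 and 13.8 FPKM in irisin HFD iWAT against 16.6, 12.1 and 19.2 in irisin chow iWAT and at 15.8, 15.8 and 13.4 FPKM in GFP HFD iWAT against 14.2, 10.04 and 15.7 in GFP chow iWAT, with log2 differences of 0.04 ± 0.25 (SE, adjusted p = 0.93) in irisin and 0.19 ± 0.25 (SE, adjusted p = 0.729) in GFP mice.

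The 2 calls in irisin iWAT were fragile. Both were lost without irisin HFD replicate 2 or 3 or without any 1 of the irisin chow libraries, at log2 fold changes of -2.24 to -2.74 for Fcgr1 and -1.17 to -1.57 for Stab1. The fit without the 4 libraries rich in other tissues, which drops irisin chow replicate 3 with its muscle transcripts, left 1 call. Fitted with its own 6 libraries alone, the comparison gave 6 called members. In GFP mice 1 member, Marco, was called without HFD replicate 3 (log2 fold change 3.76, adjusted p = 0.0475), and 0 in each other fit that left out 1 library of the GFP groups.

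The second comparison sets eWAT against iWAT under the same vector and diet, which shows in which state the depots differ. The labels do not say whether eWAT and iWAT libraries with the same number came from 1 mouse, so the depots were compared as separate samples. On HFD 5 of 10 members were higher in eWAT in irisin mice and 6 of 10 in GFP mice, against 6.75% and 9.68% of all genes called higher (10.3% and 15.2% in either direction). On chow 0 of 10 were called in either vector, against 4.33% of all genes in irisin mice and 4.63% in GFP mice (limma, with 2686 and 2657 genes at an unadjusted p under 0.05). The genes called in both vectors on HFD were Msr1, Stab1, Fcgr3, Fcgr4 and Fcer1g, and Fcgr1 was called in GFP mice. Msr1 had the largest depot difference, 2.45 ± 0.47 (SE, adjusted p = 0.00347) on the log2 scale in irisin and 3.17 ± 0.47 (SE, adjusted p = 0.000211) in GFP mice. Fcgr4 differed by 1.98 ± 0.50 (SE, adjusted p = 0.0175) in irisin and 2.76 ± 0.50 (SE, adjusted p = 0.00103) in GFP mice. Fcgr3 differed by 2.17 ± 0.50 (SE, adjusted p = 0.0103) in irisin and 2.73 ± 0.50 (SE, adjusted p = 0.00111) in GFP mice. Fcer1g differed by 2.21 ± 0.49 (SE, adjusted p = 0.00844) in irisin and 2.56 ± 0.49 (SE, adjusted p = 0.00158) in GFP mice. Fcgr1 differed by 1.73 ± 0.58 (SE, adjusted p = 0.0659) in irisin and 2.41 ± 0.58 (SE, adjusted p = 0.00857) in GFP mice, and Stab1 by 1.21 (adjusted p = 0.0468) in irisin and 1.62 (adjusted p = 0.00648) in GFP mice. In irisin mice on HFD the count of called members was 1 without eWAT replicate 1 or 3 or without iWAT replicate 2, and 0 in a fit of those 6 libraries alone.

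On chow in irisin mice the depot differences had the opposite sign for most members. Msr1, Stab1, Fcgr1, Fcgr2b, Fcgr3, Fcgr4 and Fcer1g were all lower in eWAT with no overlap, 7 of 10 genes against 14.3% of all genes, yet none was called. Fcgr1 came nearest, with 3.22, 2.84 and 1.94 FPKM in irisin chow eWAT against 11.98, 15.05 and 7.64 FPKM in irisin chow iWAT (log2 fold change -1.901, adjusted p = 0.0767). Fcgr2b had 7.98, 9.56 and 12.1 FPKM in irisin chow eWAT against 21.6, 26.7 and 16.7 FPKM in irisin chow iWAT (log2 fold change -1.09, adjusted p = 0.16). A fit of these 6 libraries alone called 6 members. In GFP mice on chow Fcgr4 was lower in eWAT without overlap (log2 fold change -0.92, adjusted p = 0.429) and Marco higher without overlap (log2 fold change 2.38, adjusted p = 0.124), against 8.12% of all genes lower and 10.7% higher. The highest of these Marco values came from eWAT GFP chow replicate 1, the library rich in B cell transcripts.

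The diet effect was then compared between depots directly, as the HFD over chow change in eWAT minus that in iWAT. Msr1, Fcgr1, Fcgr3, Fcgr4 and Fcer1g passed this test in both vectors, 5 of 10 genes each, against 2.71% of all genes called higher in irisin mice and 2.98% in GFP mice (3.73% and 4.31% in either direction). For Fcgr4 the difference of differences was 3.44 ± 0.71 (SE, adjusted p = 0.0205) in irisin mice and 3.67 ± 0.71 (SE, adjusted p = 0.00884) in GFP mice. For Fcgr1 it was 3.63 ± 0.83 (SE, adjusted p = 0.0274) in irisin and 3.53 ± 0.83 (SE, adjusted p = 0.0202) in GFP mice. The 4 genes of the activating arm and Msr1 thus rose with diet in eWAT relative to iWAT. Fcgr2b gave 2.01 ± 0.57 (SE, adjusted p = 0.0525) in irisin and 0.32 ± 0.57 (SE, adjusted p = 0.84) in GFP mice, and Stab1 1.87 (adjusted p = 0.0546) in irisin and 1.67 (adjusted p = 0.0841) in GFP mice, none of which was called. In irisin mice the count was 0 without irisin HFD replicate 1 or 3 of eWAT, without irisin HFD replicate 2 or 3 or chow replicate 2 of iWAT, or without irisin chow replicate 1 of eWAT, 2 without irisin chow replicate 2 or 3 of eWAT, and 8 without irisin HFD replicate 2 of eWAT. In GFP mice it was 1 without HFD replicate 1 of eWAT or without HFD replicate 3 or chow replicate 1 or 2 of iWAT, and 3 without HFD replicate 3 or any 1 chow library of eWAT or HFD replicate 1 of iWAT. For these 10 differences the sign stayed positive in every alternative, between 2.26 and 4.45.

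**Figure D5:**
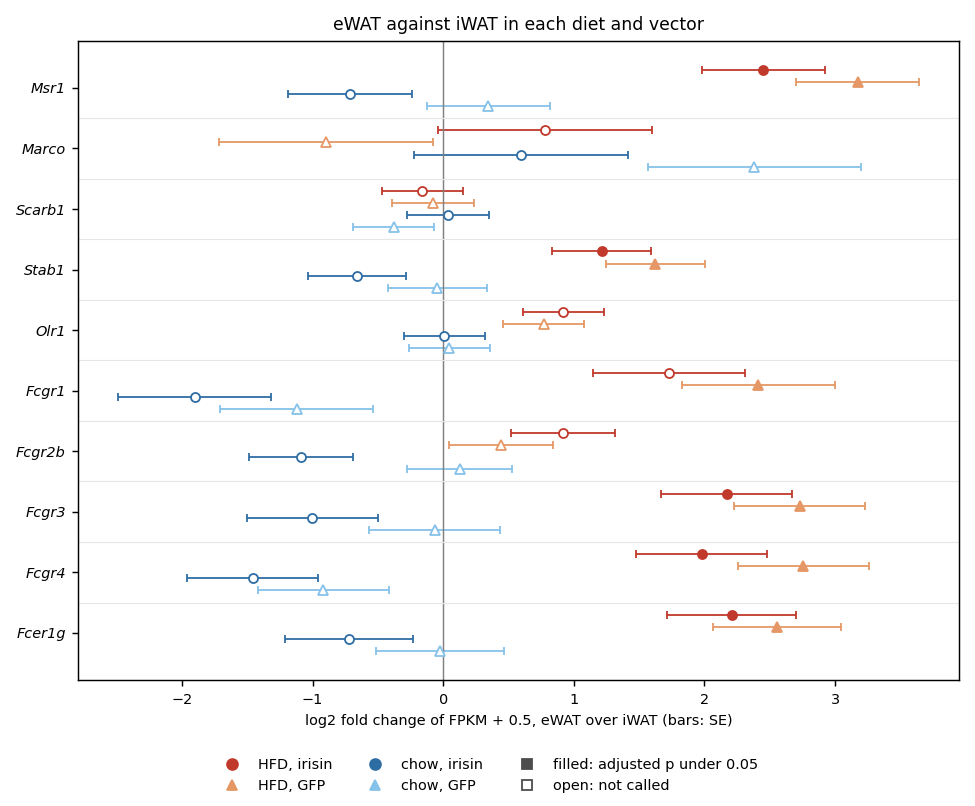
Log2 fold change of FPKM + 0.5, eWAT over iWAT (horizontal axis, bars show the SE), for the 10 receptor genes (rows) in irisin mice (circles) and GFP mice (triangles) on HFD (red and orange) and chow (blue). Filled symbols have an adjusted p under 0.05; 5 in irisin HFD and 6 in GFP HFD mice lie to the right of 0, and no chow symbol is filled.

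The third comparison asks whether the irisin vector changed the receptors. None of the members was called between irisin and GFP in either depot on either diet, and of all genes 0% were called in each of the 4 comparisons (limma, with 1510 genes at an unadjusted p under 0.05 in eWAT on HFD, 845 in eWAT on chow, 431 in iWAT on HFD and 688 in iWAT on chow). limma's voom on the reads gave 0 called members as well. In eWAT on HFD 7 of 10 receptors had lower means in irisin mice on the log scale. Msr1 was at 8.78, 2.34 and 9.64 FPKM in irisin HFD eWAT, against 17.1, 11.9 and 17.7 FPKM in GFP HFD eWAT, without overlap (log2 fold change -1.296 ± 0.39, SE, adjusted p = 0.533). Fcgr3 was at 108, 36.2 and 119 FPKM in irisin HFD eWAT, against 158, 128 and 127 FPKM in GFP HFD eWAT, without overlap (log2 fold change -0.81 ± 0.35, SE, adjusted p = 0.533). Stab1 also did not overlap (log2 fold change -0.54 ± 0.33, SE, adjusted p = 0.57), which makes 3 of 10 lower without overlap, against 6.76% of all genes (13.4% in either direction). Fcgr1 (log2 fold change -1.05, adjusted p = 0.541), Fcgr4 (log2 fold change -1.09, adjusted p = 0.539) and Fcer1g (log2 fold change -0.91, adjusted p = 0.533) overlapped, and in each of them irisin HFD replicate 2 had the lowest value. Without that library the log2 differences were -0.71 for Msr1, -0.27 for Fcgr3, -0.11 for Stab1, -0.23 for Fcgr1, -0.29 for Fcgr4 and -0.28 for Fcer1g, and none was called.

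On chow in eWAT Msr1 was lower in irisin mice without overlap (log2 fold change -0.63, adjusted p = 0.939), as was Marco, at 1.496, 0.925 and 0.469 FPKM in irisin chow eWAT against 8.46, 2.21 and 2.39 FPKM in GFP chow eWAT (log2 fold change -1.56, adjusted p = 0.939), 2 of 10 genes against 4.38% of all genes. The 8.46 FPKM is from GFP chow replicate 1, rich in B cell transcripts. In iWAT on chow all 9 tested members had higher means in irisin mice, and Stab1 did so without overlap, at 36.4, 29.4 and 38.3 FPKM in irisin chow iWAT against 23.8, 22.5 and 12.5 FPKM in GFP chow iWAT (log2 fold change 0.85, adjusted p = 0.919, with 8.22% of all genes higher without overlap). GFP chow replicate 3 of iWAT, low in macrophage transcripts, was the lowest of the 6 libraries for 8 of these 9 genes. Without it the log2 differences lay between 0.13 and 0.57 for 8 of the 9, and Msr1 was at -0.19. In iWAT on HFD 8 of 9 had lower means in irisin mice, with log2 differences of -1.56 for Marco and -0.57 to -0.13 for the other 7, and none was called. The vector by diet interaction called 0 members, against 0.00614% of all genes in eWAT and 0% in iWAT (658 and 996 genes at an unadjusted p under 0.05). Its largest values among the Fc receptors were those of Fcgr1, -1.48 ± 0.74 (SE, adjusted p = 0.908) in eWAT and -1.58 ± 0.81 (SE, adjusted p = 0.688) in iWAT.

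Part of the genes that carry or restrain the Fc receptor signal in the cell were also higher on HFD in eWAT. The list holds both kinds, among them Inpp5d, the phosphatase gene of the inhibitory arm. Of 26 signalling partners 12 were higher and 0 lower on HFD in irisin mice, and 17 were higher and 0 lower in GFP mice, against 9.47% and 14.7% of all genes called higher. Without irisin HFD replicate 2, 20 were higher in irisin mice. The macrophage markers were higher in the same groups and their part in these counts was not tested. The partners' median log2 fold change was 1.21 (all genes 0.00272) in irisin and 1.29 (all genes 0.00426) in GFP mice. Vav3, a guanine nucleotide exchange factor, had 5.05, 2.57 and 5.705 FPKM in irisin HFD eWAT against 1.47, 1.097 and 1.06 in irisin chow eWAT (log2 fold change 1.48, adjusted p = 0.00388), and 7.76, 6.79 and 6.604 FPKM in GFP HFD eWAT against 1.16, 1.59 and 1.62 in GFP chow eWAT (log2 fold change 1.95, adjusted p = 0.000818). Tyrobp, an adaptor related to Fcer1g, had 506, 445 and 371 FPKM in GFP HFD eWAT against 57.2, 39.4 and 48.2 FPKM in GFP chow eWAT (log2 fold change 3.18, adjusted p = 0.00196). Blnk, an adaptor downstream of Syk, had 11.9, 3.42 and 18.98 FPKM in irisin HFD eWAT against 1.14, 1.05 and 1.17 in irisin chow eWAT (log2 fold change 2.596, adjusted p = 0.00781), and 19.3, 14.7 and 13.96 FPKM in GFP HFD eWAT against 3.25, 1.04 and 1.41 in GFP chow eWAT (log2 fold change 2.88, adjusted p = 0.00268). The ubiquitin ligase gene Cbl rose by 0.97 (adjusted p = 0.00228) in GFP mice, and in irisin mice Pik3cg, a catalytic subunit of a lipid kinase, rose by 1.199 (adjusted p = 0.00695) and Ncf1, a subunit of the oxidase that makes superoxide, by 1.57 (adjusted p = 0.00862). In iWAT none of the 26 was called with diet, and the medians were -0.80 (all genes -0.0153) in irisin and 0.56 (all genes -0.00406) in GFP mice. The GFP median was 0.024 without HFD replicate 1, the library rich in B cell transcripts, and 0.25 without chow replicate 3, the library low in macrophage transcripts; the part of those transcripts in it was not tested.

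Of 18 other scavenger receptors tested in eWAT, 3 were higher and 1 lower on HFD in irisin mice, and 7 were higher and 2 lower in GFP mice, against 17.4% and 26.5% of all genes called in either direction. The medians were 0.35 (all genes 0.00272) in irisin and 0.51 (all genes 0.00426) in GFP mice. Without irisin HFD replicate 2, 7 were higher and 1 lower in irisin mice. Cd68, which is also part of the macrophage reference, rose by 2.75 (adjusted p = 0.00659) in irisin and 3.97 (adjusted p = 0.000929) in GFP mice, and Clec7a, a receptor for fungal glucans, by 2.59 (adjusted p = 0.0144) and 3.49 (adjusted p = 0.00235). Stab2, the relative of Stab1, rose by 1.23 (adjusted p = 0.0244) in irisin mice at low levels, 1.201, 0.591 and 1.89 FPKM in irisin HFD eWAT against 0.192, 0.197 and 0.206 in irisin chow eWAT. The genes that fell, Timd4 and Cd163, are known from resident macrophages. The 6 markers of resident perivascular macrophages, which include Timd4 and Cd163 themselves, did not fall as a sum in both vectors. Their sum is therefore not separate from these 2 genes. In irisin eWAT they summed to 89.4 to 148 FPKM on HFD against 134 to 142 on chow, so the diets overlapped. In GFP eWAT they summed to 88.7 to 112 FPKM on HFD against 119 to 201 on chow, without overlap. The part of resident macrophages in these values was not tested. Timd4, a receptor for phosphatidylserine on dying cells, had 1.38, 1.39 and 1.703 FPKM in irisin HFD eWAT against 7.04, 5.71 and 2.55 in irisin chow eWAT (log2 fold change -1.397, adjusted p = 0.00926), and 0.392, 0.35 and 0.36 FPKM in GFP HFD eWAT against 5.01, 3.58 and 4.98 in GFP chow eWAT (log2 fold change -2.52, adjusted p = 0.00061). Cd163, the receptor for haemoglobin bound to haptoglobin, had 8.82, 8.91 and 5.86 FPKM in GFP HFD eWAT against 22.7, 26.002 and 47.8 in GFP chow eWAT (log2 fold change -1.91, adjusted p = 0.00348). In iWAT of irisin mice Cd36, the fatty acid transporter of adipocytes, was higher on HFD (log2 fold change 1.21, adjusted p = 0.021) and Ssc5d (log2 fold change -1.55, adjusted p = 0.0227) and Scara5, a ferritin receptor, (log2 fold change -2.38, adjusted p = 0.0333) were lower, 1 and 2 of 17 tested against 9.01% of all genes called in either direction. In GFP mice 0 of 17 were called, against 2.37% of all genes, and without chow replicate 3 there were 2 lower.

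Of 8 other immunoglobulin Fc receptors tested in eWAT, 0 were higher and 1 lower on HFD in irisin mice, and 1 was higher and 3 lower in GFP mice, against 17.4% and 26.5% of all genes called in either direction. The medians were -0.12 (all genes 0.00272) in irisin and -0.70 (all genes 0.00426) in GFP mice. Without GFP chow replicate 1, rich in B cell transcripts, the GFP median of the 7 still tested was 0.039, with 1 called higher and 2 lower. Fcgrt, which recycles antibodies rather than signalling, was lower in both vectors: 135, 143 and 119 FPKM in irisin HFD eWAT against 186, 208 and 194 in irisin chow eWAT (log2 fold change -0.57, adjusted p = 0.00877), and 119, 118 and 104 FPKM in GFP HFD eWAT against 166, 156 and 178 in GFP chow eWAT (log2 fold change -0.55, adjusted p = 0.00528). No HFD library reached a chow library in either vector. Fcer1a, the mast cell chain that binds immunoglobulin E and also pairs with Fcer1g, was higher in GFP mice (log2 fold change 1.56, adjusted p = 0.0289), while Fcrls (log2 fold change -1.06, adjusted p = 0.00307) and the low Fcamr (log2 fold change -1.04, adjusted p = 0.0297) were lower. In iWAT Trim21, a receptor for antibodies inside the cell, was lower on HFD in irisin mice (log2 fold change -0.78, adjusted p = 0.0353), 1 of 8 against 9.01% of all genes called in either direction, and 0 of 8 were called in GFP mice, against 2.37%. The mast cell markers summed to 133, 25.4 and 97.1 FPKM in irisin HFD eWAT against 98.1, 62.5 and 119.9 in irisin chow eWAT, and to 314, 275 and 95.6 FPKM in GFP HFD eWAT against 97.1, 56.7 and 61.4 in GFP chow eWAT. Their part in the values of Fcer1g was not tested.

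Across the 24 libraries the transcripts most like each receptor were found by the root mean square difference of centred log2(FPKM + 0.5), among 11535 coding genes that averaged 1 FPKM or more. Fcgr3 had the nearest neighbour of all members, C1qb, at 0.172, against an SD of Fcgr3 itself of 1.09, and Metrnl and Rgs18 followed at 0.189 and 0.251. Fcer1g was nearest to Lrrc25 (0.198), Dnase2a (0.255) and Clec4a2 (0.257), and Msr1 to Rab7b (0.313), Cd200r1 (0.328) and Lilrb4a (0.343). Fcgr4 was nearest to Apobec1 (0.339), Cd200r4 (0.403) and Igsf6 (0.412). Near Fcgr1 were Ms4a6d (0.467) and Ifi207 (0.488). Fcgr2b had other neighbours than the activating receptors: Tgfbr2 (0.236), Tgfbi (0.269) and Il13ra1 (0.282). Stab1 was nearest to Arhgef10l (0.246), Stard8 (0.252) and Cmtm3 (0.277). Scarb1, whose own SD was 0.39, was nearest to Neurl1b (0.183), Mov10 (0.199) and Mef2d (0.213), and Olr1, with an SD of 0.56, to Mgat5 (0.233), Pi4k2a (0.237) and Frrs1 (0.241). Marco had no close neighbour, with Kif21b at 0.643, Cd22 at 0.676 and Serpina3g at 0.680 against its SD of 1.32. These distances describe 24 libraries that share depots, diets and cell mixtures.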

How the data were processed

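RNA-seq of 24 libraries (8 groups of 3) was used as the authors' deposited table of FPKM per gene, with reads aligned by HISAT2 2.0.5 and counted by featureCounts 1.5.0-p3, per the submitters' processing notes. The sources used here do not give the genome build, the strand setting or the treatment of reads that fit several genes. The 8 columns of group means were not used. FPKM values were whole multiples of 1 read (100% within 0.01), which gave 14145644 to 19726771 reads a library; 1 FPKM of a gene of 2000 bases is 26.7 to 39.3 reads, which limits Olr1 most.

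Genes reaching 0.5 FPKM in 3 or more libraries of a fit were tested on log2(FPKM + 0.5) with limma 3.58.1 (R 4.3.3, intensity trend), with 12 libraries of 1 depot in a fit (16125 genes in iWAT, 16274 in eWAT) or all 24 for depot comparisons (17687), and Benjamini-Hochberg adjustment over all genes of a fit. The steps were tested on simulated data. Receptor ratios were compared by two-sided exact permutation within strata (Python 3.11.15, scipy 1.17.1, numpy 2.4.6, pandas 2.3.3; figures with matplotlib 3.10.9). Sequences came from RefSeq (GRCm38.p6) and GENCODE M21 transcripts.

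The 10 members and all lists were chosen with earlier results of these data known. Named beside the members were, per pathway list and comparison, up to 4 called genes with the smallest adjusted p, the macrophage reference genes, and the 3 transcripts most like each member, of which 1 is not reported here. Alternatives were another pseudocount (1 and 0.1), no filter or 1 FPKM, upper quartile scaling, a replicate block, limma's voom on the recovered reads, fits of only the groups compared, each library of the groups compared left out, the 4 libraries rich in other tissues left out, and, chosen after seeing the data, the 2 libraries low in macrophage transcripts left out and the list values without single libraries.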

Additional observations from a re-analysis of the deposited data

Results flagged for a closer look

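The change with diet differed between eWAT and iWAT for 5 members in each vector, by a test of the difference itself (limma, HFD over chow in eWAT minus HFD over chow in iWAT, on the log2 scale, adjusted over all genes). For Fcgr4 it was 3.44 ± 0.71 (SE, adjusted p = 0.0205) in irisin mice and 3.67 ± 0.71 (SE, adjusted p = 0.00884) in GFP mice. For Fcgr1 it was 3.63 ± 0.83 (SE, adjusted p = 0.0274) in irisin mice and 3.53 ± 0.83 (SE, adjusted p = 0.0202) in GFP mice. For Fcgr3 it was 3.17 ± 0.71 (SE, adjusted p = 0.0257) in irisin mice and 2.79 ± 0.71 (SE, adjusted p = 0.0297) in GFP mice. For Fcer1g it was 2.93 ± 0.69 (SE, adjusted p = 0.0291) in irisin mice and 2.58 ± 0.69 (SE, adjusted p = 0.0404) in GFP mice. For Msr1 it was 3.16 ± 0.67 (SE, adjusted p = 0.0214) in irisin mice and 2.83 ± 0.67 (SE, adjusted p = 0.021) in GFP mice. The groups behind these values are the HFD and chow libraries of each depot given above, and the vectors share no library. Both vectors were in 1 fit of all 24 libraries with 1 estimate of the spread per gene, so their p-values are not independent. With 1 library of the groups compared left out, the count of called members ran from 0 to 8 in irisin mice and from 1 to 6 in GFP mice. The macrophage markers moved with the same contrast, and their part in the result was not tested.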

How the results depend on the processing

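Of 35 differences called for single members, 12 were called under every alternative run and 0 changed sign; 24 others were called under an alternative alone. Counts of called members were unsettled in the irisin groups and in the depot by diet comparison. HFD against chow in irisin iWAT gave 0 without a filter, 1 without the 4 libraries rich in other tissues, 6 with only the groups compared and 6 without the 2 libraries low in macrophage transcripts; in irisin eWAT it gave 0 with only the groups compared. eWAT against iWAT gave 0 with only the groups compared and 8 without the 2 libraries (irisin HFD), 6 and 4 under the same settings (irisin chow), and 1 with a pseudocount of 0.1 and 1 without the 2 libraries (GFP chow). The depot by diet count in GFP mice was 3 without a filter, 2 by voom and 1 without the 4 libraries, and in irisin mice 3 without a filter and 8 without the 2 libraries. The 2 libraries were picked by genes that move with the receptors. From the iWAT fit this setting drops only GFP chow replicate 3, which is outside the irisin diet comparison. No fold change of that comparison moved with it, while the shared estimate of the spread could. The cause of these shifts was not tested, and fits of only the groups compared were not run for interactions.

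With 1 library of the groups compared left out, the counts ran from 1 to 7 (irisin eWAT diet), 6 to 8 (GFP eWAT diet), 0 to 2 (irisin iWAT diet), 0 to 1 (GFP iWAT diet), 1 to 7 (irisin HFD depots), 6 to 7 (GFP HFD depots), 0 to 8 (irisin depot by diet) and 1 to 6 (GFP depot by diet), and were 0 in the irisin against GFP, vector by diet and chow depot comparisons. Libraries of other groups, which share the estimate of the spread in the same fit, were not left out 1 at a time. The receptor ratio ran from 1.57 to 1.98 (eWAT diet), -0.355 to -0.0853 (iWAT diet), 0.65 to 0.88 (depots), -0.56 to -0.06 (irisin against GFP, eWAT) and -0.15 to 0.12 (the same in iWAT). That last difference was -0.16 without the 4 libraries and -0.15 without iWAT GFP HFD replicate 1, and the depot difference was 0.30 without Fcgr3 and 0.68 without the 4 libraries. Genes called in all ran from 2643 to 5144 (GFP eWAT diet, 4310 reported), 1116 to 4165 (irisin eWAT diet, 2831), 266 to 2156 (irisin iWAT diet, 1453), 0 to 494 (GFP iWAT diet, 382), 1363 to 3713 (GFP HFD depots, 2695), 28 to 3448 (irisin HFD depots, 1819), 379 to 861 (GFP chow depots, 819), 483 to 1616 (irisin chow depots, 765), 268 to 1675 (GFP depot by diet, 762) and 62 to 2782 (irisin depot by diet, 659).

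The labels do not say whether same-numbered libraries share a mouse, and not every pair of them deviated together. Their correlations had a median of 0.027 between depots (2 of 12 pairs over 0.1, irisin HFD replicate 2 at 0.43) and 0.039 within a depot (13 of 36). For differently numbered libraries the median was -0.009 between depots (5 of 24 over 0.1, highest 0.488) and -0.037 within a depot (15 of 72, highest 0.619). The pairing was therefore not settled. With the replicate block the count was 3 for irisin iWAT diet, 1 for irisin chow depots, 6 for irisin HFD depots and 6 for irisin depot by diet, and the other counts were as reported.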
